A study of Mus musculus with 4 samples.

Results

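The genes described here store maternal mRNA in the oocyte and control its poly(A) tail. They were given by name: *Cpeb1*, *Ybx2*, *Zar1*, *Zar1l*, *Lsm14b*, *Ddx6*, *Eif4enif1*, *Eif4e1b*, *Dazl* and *Pabpc1l*, which are 10 of the 55335 genes in the deposited count matrix. All 10 had enough counts to enter the test of 15493 genes. The series measured RNA of mouse oocytes (strain C57BL/6) in 4 Smart-Seq2 libraries, 2 with the genotype label Control and 2 with the label Mutant. The mutation is a point change at an alternative splice site of exon 3 of *Ezh2*, the gene of the H3K27 methyltransferase in Polycomb repressive complex 2. The series describes a long-form and a short-form mouse line, and the label Mutant does not say which of them was used. The sample descriptions carry the tag MII, which in oocytes commonly stands for metaphase of the second meiotic division. Ages, treatments and the number of oocytes per tube were not given in the sources used here, and no label says that libraries came from separate animals. The p-values therefore measure only the spread between these libraries.

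A growing oocyte makes and stores mRNA that it will translate only after transcription has stopped. Stored messages have short poly(A) tails and sit in particles of RNA-binding proteins that keep the cap from the translation machinery. During meiotic maturation the protein CPEB1, bound to U-rich cytoplasmic polyadenylation elements (CPEs) in the 3′ UTR, is modified, tails lengthen and translation starts. Smart-Seq2 primes cDNA at poly(A) tails and amplifies it, so these libraries count polyadenylated RNA. Tail length itself was not measured.

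CPE sites are printed for 5 of the 10 genes and for 4 messages known to be translated during maturation. They are matches of letters, and binding by CPEB1 was not measured. Matches in *Eif4enif1* and in the messages *Dcp1a*, *Dcp2*, *Orc6*, *Tpx2* and *Cnot6l* are not printed. The letters searched were TTTTAT and TTTTAAT, on the transcript strand only, in 1 coding transcript per gene (GENCODE M21, GRCm38, the same build as mm10). TTTTAAT can run into the polyadenylation signal AATAAA. Each line gives the CPE nearest the annotated 3′ end in a stretch of 30 bases, with the CPE in capitals and, for *Cnot7*, the signal as well.
*Dazl*, chr17:50279752-50279781, minus strand: aagtcaaaattcTTTTATgtcaccaagtca
*Cpeb1*, chr7:81347256-81347285, minus strand: ttgacttttctTTTTAATttaacgattact
*Lsm14b*, chr2:180034634-180034663, plus strand: aatggaaccaaaTTTTATttggcacatgtg
*Ddx6*, chr9:44639893-44639922, plus strand: aagccatgttaTTTTAATtggatacttttt
*Ybx2*, chr11:69941532-69941561, plus strand: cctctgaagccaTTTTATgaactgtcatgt
*Ccnb1*, chr13:100778775-100778804, minus strand: ctcatttgctgTTTTAATttatacatctga
*Plat*, chr8:22782745-22782774, plus strand: gtatatttataTTTTAATctattttagttt
*Btg4*, chr9:51119797-51119826, plus strand: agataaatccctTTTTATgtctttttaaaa
*Cnot7*, chr8:40493036-40493065, minus strand: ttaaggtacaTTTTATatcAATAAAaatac

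The 3′ UTRs of 6 of the 9 genes (66.7%) with a UTR of at least 100 bases held a CPE somewhere. The share was 58.3% of 19193 coding genes and 65.1% of the 11604 that were tested, near that of the 9. *Dazl* held 6 in 1852 bases, *Ddx6* 7 in 4250 bases and *Cpeb1* 4 in 1315 bases. *Lsm14b* held 2, and *Ybx2* and *Eif4enif1* held 1 each. Within the last 100 bases, only *Ybx2* of the 9 had a CPE, 62 bases before the annotated end. Of coding genes 18% had one there, and of the tested ones 20.7%. Among the 11 dormant messages described further on, 5 had a CPE in that window and 9 had one somewhere in the 3′ UTR. *Mos* and *Tex19.1* had none. *Zar1*, *Pabpc1l* and *Eif4e1b* had none of these letters in their annotated 3′ UTRs, and the annotated 3′ UTR of *Zar1l* was 14 bases long. A match describes the annotated sequence, and the ends used in these oocytes were not measured. Over tested coding genes, 4.25% of the 2402 with a CPE in the last 100 bases passed the test between mutant and control, and 3.24% of the 9202 without one.

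The libraries held 25090032 to 26617816 counts. The oocyte marker genes had a summed level of 18171 to 20289 CPM (counts divided by library size, with TMM scaling), with none of 11 measured markers at 0 and *Figla* the lowest at 0.497 to 0.714 CPM. *Ezh2* was at 313 and 239 CPM in controls against 176 and 223 CPM in mutants (log2 fold change -0.47, adjusted p = 0.219), and as a sum over isoforms this does not check the genotype. Markers of other cells differed between libraries. The 16 cumulus and granulosa markers summed to 71.4 and 55.9 CPM in controls and to 364 and 46.2 CPM in mutants. *Cyp19a1* and *Nr5a2* made up most of that sum in controls 1 and 2 and in mutant 2, and *Cyp19a1* was lowest in mutant 1 (16.4 CPM). The other 14 markers summed to 27.2 and 2.06 CPM in controls 1 and 2 and to 335 and 15.6 CPM in mutants 1 and 2, a split made after the values were seen. *Gja1*, *Ptx3* and *Inha* were at 0 in control 2. The 12 leukocyte markers summed to 173 CPM in mutant 2 and to 3.99 to 5.60 CPM elsewhere, with *Ptprc* at 0 in both controls. The exact two-sided permutation test cannot go below p = 0.333 with 2 libraries against 2, and it gave p = 1.0 for the cumulus list and 0.667 for the leukocyte list.

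None of the 10 genes passed the test between mutant and control oocytes (quasi-likelihood test of edgeR, p adjusted by Benjamini-Hochberg over all genes, threshold 0.05). Over all tested genes 3.75% passed, and 5.34% of the 6532 whose mean reached 10 CPM. As these are bulk libraries, fewer cells of a type and less RNA per cell cannot be told apart. At an unadjusted p under 0.05 the count was 1 of 10, *Lsm14b*, against 23.0% of all tested genes, and DESeq2 and limma called 0 of the 10, against 11.9% and 4.76% of those genes. The log2 fold changes had a median of 0.01, with 5 positive and 5 negative, and their median size was 0.15. Over all tested genes the median was 0.05 and the median size 0.45, and for genes whose mean reached 10 CPM the median size was 0.29. The groups did not overlap in CPM for 4 of the 10, against 54.6% of all tested genes. A p above the threshold does not show that a level was equal, so each gene is given with the 95% interval of its fold change.

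**Figure D1:**
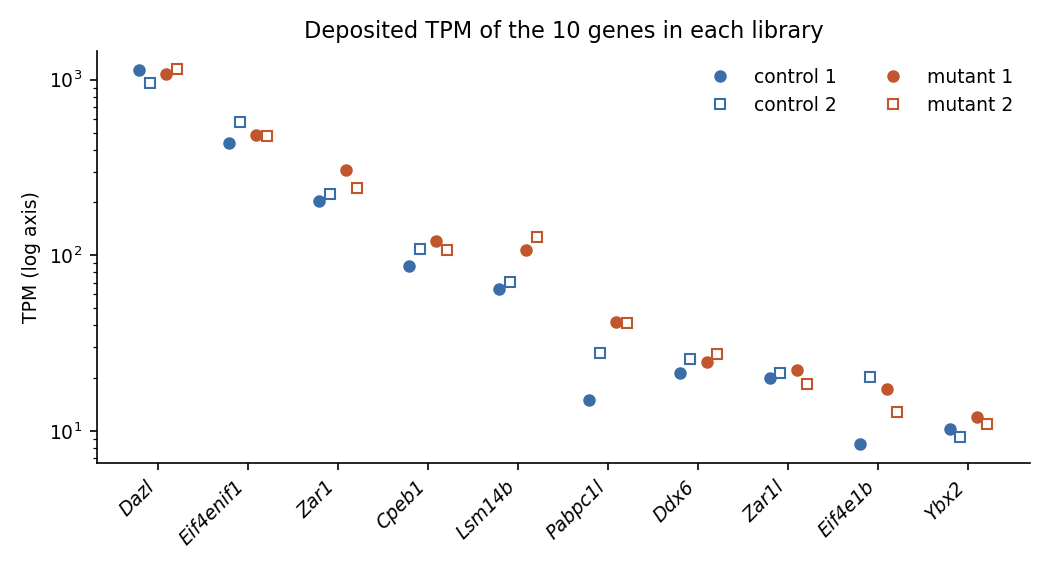
Deposited TPM (abundance per transcript length, scaled to the library; log axis) of the 10 genes in each of the 4 libraries, ordered by mean; filled circles are replicate 1 and open squares replicate 2 of control (blue) and mutant (orange). Means run from 1078 TPM for *Dazl* to 10.6 TPM for *Ybx2*, and both mutants lie above both controls for *Zar1*, *Lsm14b*, *Pabpc1l* and *Ybx2*.

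Per length, the 10 genes covered a 101-fold range. *Dazl* had the highest mean, 1078 TPM, and ranked 126th of all genes. *Eif4enif1* followed with 492 TPM, *Zar1* with 243 TPM and *Cpeb1* with 106 TPM. The next were *Lsm14b* at 92.3 TPM, *Pabpc1l* at 31.5 TPM and *Ddx6* at 24.7 TPM. *Zar1l* at 20.5 TPM, *Eif4e1b* at 14.7 TPM and *Ybx2* at 10.6 TPM were the lowest. *Dazl*, *Eif4enif1*, *Zar1* and *Cpeb1* stood apart from one another in every library. From *Cpeb1* down, neighbours in this order overlapped in their range over the libraries, except *Lsm14b* and *Pabpc1l*. The order was the same for all 10 genes in the deposited FPKM. These levels are of whole genes and include transcripts without an annotated protein, described further on. The coding transcripts of *Lsm14b* alone were at no more than 14.8 TPM in any library.

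The regulators that bind 3′ UTRs directly had fold intervals that included 1. *Cpeb1* (chromosome 7, 81347026 to 81455465, minus strand), which first represses CPE-bearing messages and then recruits the polyadenylation machinery, was at 199 and 221 CPM in controls against 228 and 201 CPM in mutants. The groups overlapped, and the fold change of 1.02 had an interval of 0.797 to 1.31 (log2 fold change 0.03, SE 0.148, adjusted p = 0.932). *Dazl* (chromosome 17, 50279395 to 50293636, minus strand), which activates translation of many messages during maturation, was at 2379 and 1830 CPM in controls against 1821 and 2007 CPM in mutants. Control 1 was the highest and control 2 lay between the mutants (log2 fold change -0.14, SE 0.188, adjusted p = 0.719). Its fold interval was 0.665 to 1.24.

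*Zar1* and *Zar1l* encode related zinc-finger proteins that bind maternal mRNA and help to hold it in the cytoplasm. *Zar1* (chromosome 5, 72576806 to 72581254, minus strand) was at 152 and 156 CPM in controls against 195 and 160 CPM in mutants. Mutant 1 stood above the rest, while mutant 2 was close to the controls (log2 fold change 0.21, SE 0.154, adjusted p = 0.478). Without mutant 1 the log2 fold change was 0.04, and the cumulus markers were also highest in that library, whose part in the value was not tested. *Zar1l* (chromosome 5, 150507055 to 150518164, minus strand) was at 9.66 and 9.13 CPM in controls against 8.59 and 7.48 CPM in mutants, both mutants being lower. Its log2 fold change was -0.23 (SE 0.286, adjusted p = 0.693), and in TPM the groups overlapped. The paralogs thus had values of opposite sign, both with 95% intervals that included 0 (-0.16 to 0.58 and -0.91 to 0.46), and *Zar1* was the more abundant of the pair in TPM in every library.

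*Ybx2* encodes MSY2, a Y-box protein that coats mRNA in growing oocytes and stabilises it. *Ybx2* (chromosome 11, 69935796 to 69941605, plus strand) was the scarcest of the 10, with 87 and 81 counts in controls and 110 and 91 counts in mutants. These are 3.5, 3.21, 3.91 and 3.42 CPM, and the groups overlapped (log2 fold change 0.12, SE 0.387, adjusted p = 0.886). At this depth a change between 0.573-fold and 2.08-fold lies within the interval. The matrix gave *Ybx2* 1.23 to 1.34 times the RSEM estimate, and at most 1.21 times that estimate for the other 9 genes.

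The genes of the repressive particle gave the one value whose interval excluded no change. *Lsm14b* (chromosome 2, 180024987 to 180035465, plus strand), an RNA-binding scaffold of the particle in oocytes, was at 36.2 and 37.8 CPM in controls against 51.3 and 56.2 CPM in mutants. Both mutants lay above both controls, and the gap between groups was wider than the gap within either. The fold change was 1.45 with an interval of 1.10 to 1.92 (log2 fold change 0.54, SE 0.167, unadjusted p = 0.0163, adjusted p = 0.123 over all genes, edgeR), so it did not pass. Among all tested genes, 28.8% had both mutants above both controls. With 1 library left out the log2 fold change stayed between 0.46 and 0.58.

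*Ddx6*, *Eif4enif1* and *Eif4e1b* act with it: an RNA helicase, the 4E-T protein that binds cap-binding proteins, and an oocyte form of the cap-binding protein eIF4E. *Ddx6* (chromosome 9, 44604892 to 44640731, plus strand) was at 72.9 and 79.1 CPM in controls against 71.4 and 79.3 CPM in mutants, the closest match between the groups among the 10. Its fold interval was 0.769 to 1.28 (log2 fold change -0.01, SE 0.153, adjusted p = 0.972). *Eif4enif1* (chromosome 11, 3202392 to 3244588, plus strand) was at 795 and 1061 CPM in controls against 778 and 877 CPM in mutants, with mutant 2 between the controls. Its log2 fold change was -0.17 (SE 0.189, adjusted p = 0.658). The whole gene lies within 42197 bases shared with *Drg1* on the other strand, and *Drg1* had 225 to 593 counts against 19748 to 26726 for *Eif4enif1*.

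*Eif4e1b* (chromosome 13, 54783998 to 54788459, plus strand) varied most between libraries of 1 group. It was at 11.6 and 23.8 CPM in controls, a 2.06-fold gap, and at 19.5 and 13.1 CPM in mutants. Both mutants fell between the controls (log2 fold change -0.12, SE 0.391, adjusted p = 0.895). Without control 2 the log2 fold change was 0.45 and without control 1 it was -0.55, so its sign rested on which control was used.

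*Pabpc1l* encodes the embryonic poly(A)-binding protein, which reads the lengthened tail. *Pabpc1l* (chromosome 2, 164025450 to 164050538, plus strand) was at 17.5 and 25.1 CPM in controls against 31.5 and 29.9 CPM in mutants. Both mutants lay above both controls, and the controls were 1.44-fold apart. The fold change was also 1.44, with an interval of 0.970 to 2.15 (log2 fold change 0.53, SE 0.239, adjusted p = 0.248). Without control 1 the log2 fold change was 0.28, and without control 2 it was 0.77.

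**Figure D2:**
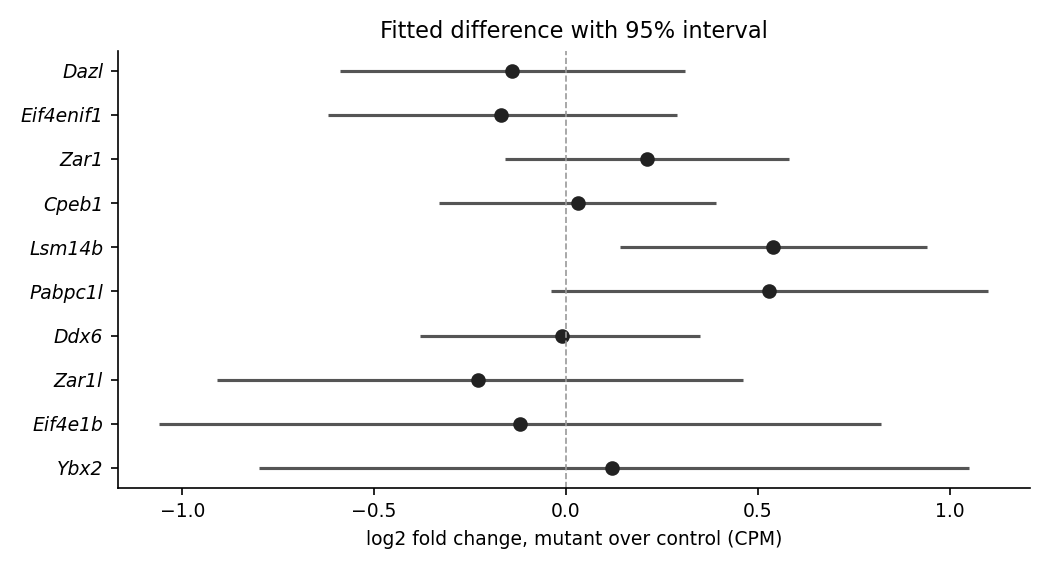
Fitted log2 fold change of mutant over control (horizontal axis, CPM scale) for each gene, with its 95% interval from the edgeR fit as a line. Only the interval of *Lsm14b*, 0.14 to 0.94, lies wholly on one side of 0, and the widest are those of *Eif4e1b* and *Ybx2*.

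**Figure D3:**
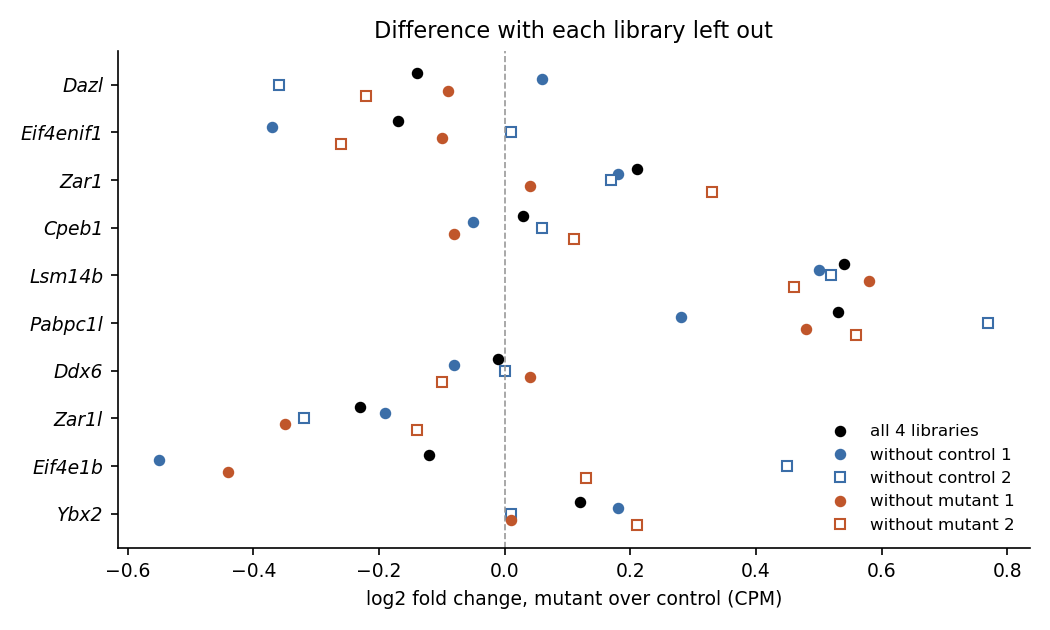
Log2 fold change of mutant over control for each gene with all 4 libraries (black) and with each library left out (blue, a control; orange, a mutant; filled circles for replicate 1 and open squares for replicate 2). *Lsm14b*, *Pabpc1l*, *Zar1* and *Ybx2* stay positive and *Zar1l* stays negative throughout, while *Eif4e1b* runs from -0.55 to 0.45.

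The deposited TPM gave a larger ratio of mutant to control than CPM for all 10 genes, and the ratio was above 1 for 8 of them in TPM against 5 in CPM. The direction turned for *Dazl* (1.06 in TPM, 0.909 in CPM), *Ddx6* (1.11 and 0.991) and *Eif4e1b* (1.05 and 0.923). In TPM *Lsm14b* was at 63.9 and 70.6 in controls and at 107 and 128 in mutants, a ratio of 1.75. *Pabpc1l* was at 15.0 and 27.7 TPM in controls and at 41.8 and 41.4 TPM in mutants, a ratio of 1.95. The median TPM ratio over 6373 genes whose mean reached 10 CPM was 1.09, and their median CPM ratio was 0.977, so the scales themselves differ. TPM also divides by a gene length that RSEM averages over the transcripts it estimates to be present.

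That averaged length reflects the share of each annotated transcript that RSEM estimated, counted in transcripts and not in reads. For *Lsm14b* it was 972 and 988 bases in controls and 982 and 932 bases in mutants, although the coding transcripts are 2534 and 2566 bases long. The only other annotated transcript is a processed transcript of 733 bases with no annotated protein, all of whose bases lie in exons of the coding ones. By these lengths that transcript made up 86.7 to 87.0% of *Lsm14b* transcripts in control 1 and 85.9 to 86.1% in control 2. It made up 86.2 to 86.4% in mutant 1 and 89.0 to 89.2% in mutant 2. The coding transcripts alone were then at no more than 8.49 and 9.98 TPM in controls and 14.8 and 14.1 TPM in mutants, so the groups were in the same order as in the whole gene.

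In other genes of the set too, transcripts without an annotated protein made up part of the estimated transcripts. These are shares of transcripts, not of reads, and those transcripts were shorter than the coding ones. For *Ybx2* the share was at least 75.3 and 70.2% in controls and 69.9 and 67.1% in mutants. For *Ddx6* a retained-intron transcript of 3502 bases made up at least 51.3 and 54.0% in controls and 50.3 and 51.5% in mutants. *Pabpc1l* differed most between libraries, with at least 29.1 and 42.2% in controls and 46.1 and 48.1% in mutants. Its coding transcript was then at most 10.6 and 16 TPM in controls and 22.5 and 21.5 TPM in mutants. In contrast, the lengths for *Dazl*, 2934 to 2959 bases, lay near its longest coding transcript of 2976 bases. These shares are model estimates from short reads on shared exons, no file held values per transcript, and they were not tested.

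**Figure D4:**
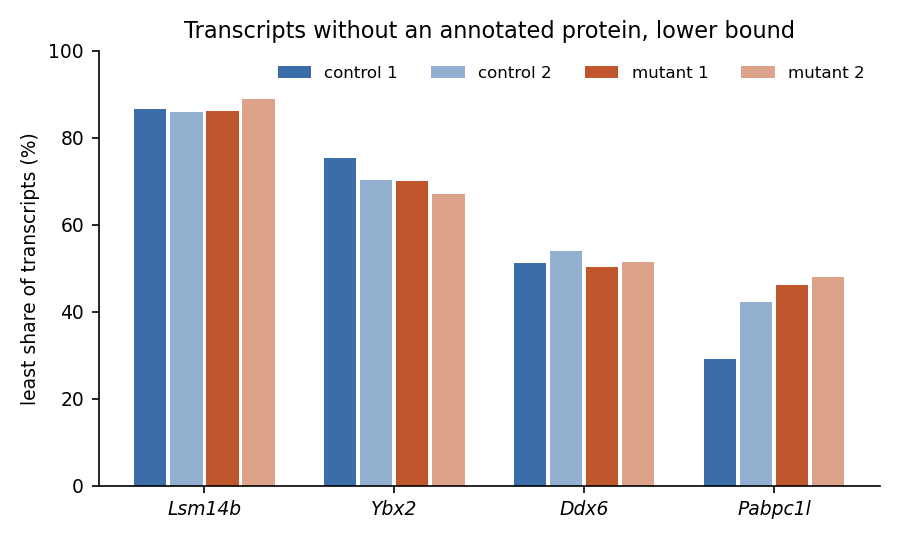
Least share (percent of transcripts) of annotated transcripts without a protein that can give the deposited mean length, for 4 genes in each library (bars; control blue, mutant orange, replicate 2 paler). Bars stand near or above 86% for *Lsm14b* in all 4 libraries and run from 29.1 to 48.1% for *Pabpc1l*.

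Several members are set here beside a paralog, whose protein need not do the same task. *Eif4e*, for the cap-binding protein of most cells, averaged 921 TPM against 14.7 TPM for *Eif4e1b*. *Lsm14a* was at 352 TPM against 92.3 TPM for *Lsm14b*, and *Ybx1* at 223 TPM against 10.6 TPM for *Ybx2*. *Cpeb1*, at 106 TPM, was above *Cpeb4*, at 55.1 TPM. In each of these pairs the order was the same in all 4 libraries. These are levels of whole genes. Coding transcripts alone were at no more than 14.8 TPM for *Lsm14b* and 3.62 TPM for *Ybx2* in any library, and they were not estimated for the paralogs.

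Of the paralogs, *Eif4e* was at 423 and 413 CPM in controls against 308 and 286 CPM in mutants. Both mutants lay below both controls, and the value did not pass (log2 fold change -0.49, interval -0.82 to -0.16, adjusted p = 0.0950 with edgeR and 0.00942 with DESeq2). *Pabpc1* encodes the poly(A)-binding protein of somatic cells, and its levels were 4.15 and 2.65 TPM in controls against 35.4 and 8.27 TPM in mutants (fitted on counts, log2 fold change 2.35, SE 0.664, adjusted p = 0.0982). It was highest in mutant 1, where the cumulus markers summed to 364 CPM, and without mutant 1 its log2 fold change was 1.06 (adjusted p = 0.200). Without mutant 2 it was 3.01 (adjusted p = 0.00922), a value that rests on mutant 1 alone, with the spread taken from the controls. It passed with DESeq2 and with no filter (adjusted p = 0.00634 and 0.0300). The part of cumulus RNA in this value was not tested. *Lsm14a*, *Ybx1* and *Cpeb4* had log2 fold changes of 0.21, -0.10 and 0.16 (adjusted p = 0.466, 0.841 and 0.570).

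**Figure D5:**
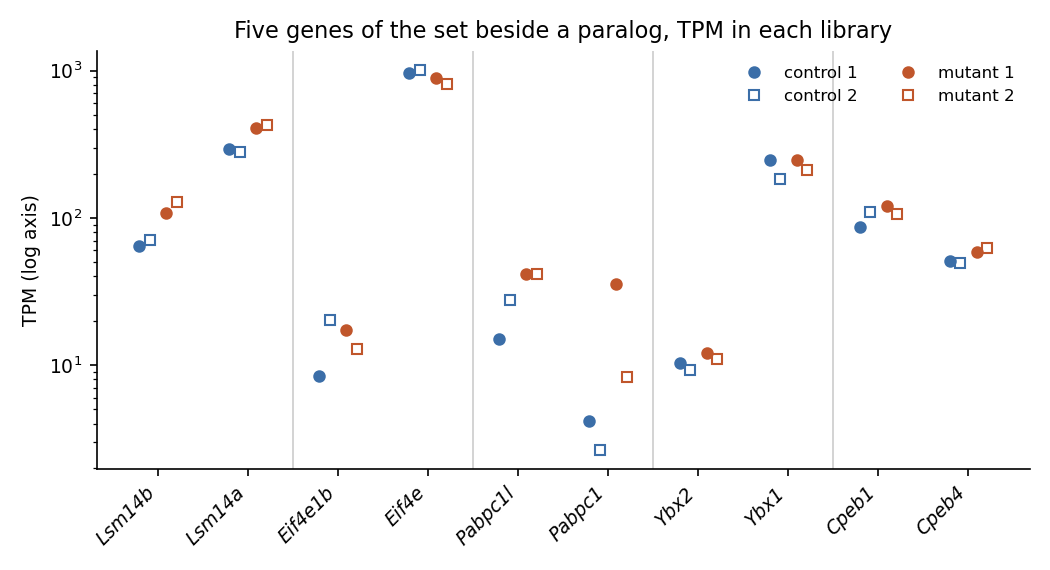
TPM (log axis) in each library for 5 members, each beside a paralog, with symbols as in the plot of the 10 genes by TPM. *Lsm14b*, *Eif4e1b* and *Ybx2* lie below their paralogs in every library, *Cpeb1* lies above *Cpeb4*, and *Pabpc1* spans 2.65 to 35.4 TPM.

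Other genes of the pathway were read from 4 lists, of which 68 genes were in the matrix and 65 were tested. Among them 2 were called higher and 1 lower, against 1.77% and 1.98% of all tested genes. The median log2 fold change was 0.16, with 40 positive and 25 negative. Over all tested genes it was 0.05, with 8253 positive and 7240 negative.

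None of 20 genes of cytoplasmic polyadenylation passed (edgeR), nor with DESeq2 or limma. An unadjusted p under 0.05 was found for 3 (15.0%, against 23.0% of all tested genes). Their median log2 fold change was 0.16. The most abundant in CPM, which is not corrected for length, were *Wdr33*, a subunit of the cleavage and polyadenylation complex, at 592 ± 30.9 and 754 ± 41.0 CPM in controls and mutants, and *Aurka*, a kinase gene linked to CPEB1 activation, at 196 ± 6.07 and 181 ± 2.43 CPM (SD, n = 2 each). Their adjusted p-values were 0.218 and 0.666.

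None of 22 tested genes of repression and storage passed with edgeR, where 5 had an unadjusted p under 0.05, while DESeq2 called 4 and limma 1. The unadjusted share, 22.7%, was near that of all tested genes, 23.0%. The shares called were 18.2% with DESeq2 and 4.55% with limma, against 11.9% and 4.76% of all tested genes. The most abundant in CPM, the RNA-binding protein gene *Fxr1* and the cap-binding protein gene *Eif4e3*, had log2 fold changes of -0.16 and 0.08. *Msi2* and *Caprin1*, RNA-binding protein genes chosen after their values were seen, lay closest to the threshold. *Msi2* was at 33.5 and 55.1 CPM in controls against 120 and 94.1 CPM in mutants (log2 fold change 1.27, SE 0.267, adjusted p = 0.0567). *Msi2* passed with DESeq2 and limma (adjusted p = 0.000130 and 0.0465) and with either of the other filters on low counts. It also passed without mutant 1 or mutant 2 (adjusted p = 0.00528 and 0.0393), where the lone mutant is assumed to vary like the controls, and not without control 1 or control 2 (adjusted p = 0.311 and 0.191). *Caprin1* had a log2 fold change of 0.84 (SE 0.182, adjusted p = 0.0606), and it passed with DESeq2 (adjusted p = 0.00287), with no filter (0.0284) and with the filter at 10 CPM (0.0346). It did not pass with limma (adjusted p = 0.0536). Nor did it with edgeR on total counts (0.0648), upper quartile factors (0.0546) or RSEM expected counts (0.0573). With each library left out its log2 fold change ran from 0.66 to 0.97, and it passed in none of those fits.

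Among 12 genes of the poly(A)-binding and cap complex, *Eif4g3* and *Eif4h* passed, both higher in mutants, and none passed as lower. The log2 fold changes were above 0 for 8 and below 0 for 4, and their median was 0.34. At an unadjusted p under 0.05 the count was 7 (58.3%, against 23.0% of all tested genes), 6 higher and 1 lower. DESeq2 called 5 and limma 2, against 11.9% and 4.76% of all tested genes. *Eif4g3* encodes a scaffold that joins the cap to the poly(A)-binding protein. It was at 50.9 and 52.7 CPM in controls against 105 and 103 CPM in mutants, a 2.01-fold rise (log2 fold change 1.01, SE 0.145, adjusted p = 0.0224). *Eif4h*, a gene for a helper of the cap helicase, rose from 34 and 33 counts to 174 and 216 counts, which is 1.37 and 1.31 CPM against 6.18 and 8.11 CPM (log2 fold change 2.41, SE 0.398, adjusted p = 0.0326). Without control 1 or control 2 neither passed (adjusted p = 0.251 and 0.247 for *Eif4g3*, 0.303 and 0.300 for *Eif4h*), with log2 fold changes between 0.97 and 0.99 and between 2.33 and 2.43. The sums of the cumulus markers in mutant 1 and of the leukocyte markers in mutant 2 were above those in the controls, and their part in the *Eif4h* and *Eif4g3* values was not tested.

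The dormant messages known to be translated through CPEB1 or DAZL numbered 11, with log2 fold changes on counts below 0 for 9 and above 0 for 2 (median -0.17). The median was 0.05 over all tested genes and -0.04 over those whose mean reached 10 CPM, as it did for all 11. In the deposited TPM the ratio of mutant to control was below 1 for 5 and above 1 for 6. At an unadjusted p under 0.05 the count was 3 (27.3%, against 23.0% of all tested genes). DESeq2 called 3 (27.3%, against 11.9%) and limma 1 (9.09%, against 4.76%). With edgeR only *Tex19.1*, a germ-line gene and target of DAZL, passed. It was at 37.5 and 39.9 CPM in controls against 18.8 and 16.5 CPM in mutants (log2 fold change -1.14, SE 0.196, adjusted p = 0.0370). It did not pass without control 1, control 2 or mutant 2, or with total counts in place of TMM (adjusted p = 0.0629, edgeR). In those fits the log2 fold change stayed between -1.19 and -1.04. It was -1.25 without mutant 1 and -1.46 with RSEM expected counts. For *Tex19.1* the matrix gave 1.09 and 1.06 times the RSEM estimate in controls, and 1.37 and 1.32 times in mutants. *Mos*, the kinase gene that sustains meiotic arrest, was at 182 and 170 CPM in controls against 128 and 132 CPM in mutants and did not pass with edgeR (log2 fold change -0.44, SE 0.137, adjusted p = 0.123) but did with DESeq2 (adjusted p = 0.0485). The cyclin gene *Ccnb1*, the protease gene *Plat* and the decay adaptor gene *Btg4*, named with *Mos* after their values were seen, had log2 fold changes of -0.17, -0.27 and -0.09 (adjusted p = 0.661, 0.355 and 0.838).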

How the data were processed

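The submitters' processing notes name cutadapt 1.16, STAR, RSEM and the build mm10. Roles, settings and strand use were not given in the sources read. The authors deposited whole-number counts per gene in a series matrix, and, per the file headers, expected counts, TPM, FPKM and mean transcript lengths in bases (a value of another kind) per library. Symbols came from the tables per library, and 55154 of 55335 gene IDs matched GENCODE M21, whose positions and transcripts were used. The test was run on the counts with edgeR 4.0.16 under R 4.3.3 (TMM, filterByExpr, glmQLFTest, genotype as the only term, adjusted p under 0.05), with 2 residual degrees of freedom. Standard errors were derived from the log2 fold change and its F value. The members and lists were chosen with earlier results of these data known. Named genes were all members, list genes past the threshold or the 2 most abundant, and paralogs; *Msi2*, *Caprin1*, *Mos*, *Ccnb1*, *Plat* and *Btg4* were added after their values were seen. On simulated counts with a coefficient of variation of 0.353 the test recovered 2% of 2-fold and 50% of 4-fold changes among 15813 genes tested. Every simulated gene was given that same variation, so these shares do not apply to genes that varied less. *Eif4g3*, with an SE of 0.145, passed at a 2.01-fold difference. Alternatives used DESeq2 1.42.0, limma 3.58.1, other scalings and filters, expected counts rounded to whole numbers, a replicate block and each library left out. Python 3.11.15 was used for the rest. No protein sequences were used.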

Additional observations from a re-analysis of the deposited data

How the results depend on the processing

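None of the 10 genes passed under any of the 13 alternative fits. At an adjusted p under 0.10 the main settings still gave 0, and *Lsm14b* was under it with DESeq2 (0.0760, the lowest) and with the filter at 10 CPM (0.0827). Of 128 values of these genes under the alternatives, 118 kept their sign and 10 did not. With each library left out in turn, the log2 fold change ran from -0.08 to 0.11 for *Cpeb1*, -0.10 to 0.04 for *Ddx6*, -0.37 to 0.01 for *Eif4enif1*, -0.55 to 0.45 for *Eif4e1b* and -0.36 to 0.06 for *Dazl*. For *Eif4e3* it ran from -0.15 to 0.29, for *Ybx1* from -0.41 to 0.22, for *Ccnb1* from -0.37 to 0.00 and for *Btg4* from -0.30 to 0.07. *Ddx6* was at 0.07 with total counts, 0.04 with upper quartile factors and 0.03 when only genes averaging 10 CPM or more were tested, and with total counts *Ybx1* was at 0.01 and *Btg4* at 0.00. The 581 genes called over the whole table became 1935 with DESeq2 on all 26406 genes with a count (1849 of them among the 15493 that edgeR tested), 1322 with no filter and 22 to 1688 with a library left out, lowest without control 1; the group left with 1 library is assumed to vary like the other. The 3 pathway genes called became 12 with DESeq2, 6 with no filter and 0 to 5 with a library left out. The replicate numbers come from titles that name no shared animal or day; deviations of same-numbered libraries correlated at 0.176, and with the replicate block 1213 genes, 6 pathway genes (among them *Msi2*, *Caprin1* and *Pabpc1*, adjusted p = 0.0223, 0.0492 and 0.0213) and 0 of the 10 passed. The cause of these shifts was not tested. The widest intervals were those of *Eif4e1b*, *Ybx2* and *Zar1l*, and *Ybx2*, with 81 to 110 counts, was the scarcest.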
